A study of Mus musculus with 18 samples.

Results

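The measurements concern how far 4 days of differentiation changed gene expression in mosaic neurospheres compared with wild type neurospheres. Neurospheres are free-floating clusters of neural stem and progenitor cells grown in culture. For each gene the wild type change (day 4 minus day 0) was subtracted from the mosaic change, so a value above 0 means a larger rise or a smaller fall in the mosaic cultures. The difference was taken for 19016 of 22180 genes, from 12 of the 18 arrays of the series, with 3 arrays in each of 4 groups. The groups were wild type at day 0, wild type at day 4, mosaic at day 0 and mosaic at day 4. A mosaic culture mixed wild type cells with Pcdh19 knockout cells, and the proportions of the mix are not stated. The other 6 arrays came from pure Pcdh19 knockout cultures on the same days, and they served for the estimate of spread and for side-by-side values. The design text calls the replicates technical, so p-values measure the spread between these arrays, which may leave out variation between animals or cultures. The sources used here do not give the deleted segment of Pcdh19, the animals behind the cultures or their age.

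Pcdh19 encodes a protocadherin, a cell surface protein by which cells bearing the same protein adhere to one another, and the gene lies on the X chromosome. In people its mutation causes an epilepsy mainly in females, whose tissues mix cells with and without the protein. When neurospheres are taken out of growth factor they stop dividing and give rise to astrocytes, neurons and oligodendrocytes, the cells that wrap axons in myelin. The comparison asks whether a mixture of both cell kinds goes through that change differently from pure wild type cells.

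Values were log2 probe set levels, which ran from 0.722 to 13.97, and differences below are on that log2 scale. The medians of the 18 arrays lay between 4.85 and 4.99, and the number of arrays limits the precision, with a median standard error (SE) of 0.178 for a difference of responses. All 18 arrays are labelled female, yet the Y-linked genes Eif2s3y (8.24 to 9.04), Kdm5d (6.85 to 8.20) and Uty (6.96 to 7.97) lay above the 75th percentile of all 18 arrays, and Xist read 2.68 to 3.98. The labels for the sex of the cells and the signal therefore disagree in all groups alike. Mosaic replicate 3 at day 4 stood apart from the other mosaic arrays of that day in several gene groups named below, and values without it are given beside them.

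Pcdh19 (probe set 17544373) itself did not differ detectably in its response. Its level in wild type cultures was 6.85, 6.83 and 6.66 at day 0 and 6.90, 6.98 and 6.81 at day 4. In mosaic cultures it was 6.03, 6.31 and 5.65 at day 0 and 6.54, 7.09 and 5.52 at day 4. Every mosaic array lay below every wild type array at day 0, whereas at day 4 replicate 2 lay above all wild type arrays and replicate 3 was just below the range of the knockout cultures of that day (5.53 to 5.86). The mosaic response exceeded the wild type one by 0.27 ± 0.37 (SE, n = 3 per group, 95% confidence interval -0.52 to 1.06, adjusted p = 0.79 in limma). Without mosaic day 4 replicate 2 the difference was -0.084, and without replicate 3 it was 0.70. At day 0 the knockout cultures read 5.39, 5.46 and 5.68, so on both days every knockout array lay below every wild type array. The probe set thus followed the labels of the pure cultures. Which part of the gene it reads relative to the deletion is not known.

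No gene passed an adjusted p under 0.05 in the difference of responses in limma (0 of 19016, 0%), and the lowest adjusted p was 0.195. At an unadjusted p under 0.05 there were 2354 genes (12.4%), of which 1028 had a higher response in the mosaic (5.41%) and 1326 a lower one (6.97%). The smallest adjusted p, shared by 10 genes, belonged to 2 with a higher and 8 with a lower mosaic response. Differentiation itself moved many genes in each culture, with 6386 genes called in wild type (33.6%) and 4989 in mosaic cultures (26.2%). More genes reached the unadjusted threshold at day 4 than at day 0. At an unadjusted p under 0.05, mosaic and wild type differed in 817 genes at day 0 (4.3%) and in 3026 at day 4 (15.9%), with 0 genes passing after adjustment on either day in limma. The difference of responses of the knockout cultures from wild type, which uses the same wild type arrays, likewise had 0 calls and 1809 genes at an unadjusted p under 0.05 (9.51%). Mosaic against knockout, which uses the same mosaic arrays, had 815 (4.29%).

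The difference of responses followed the level of the gene. When the genes were divided into 5 classes of equal size by mean level, the median difference was -0.16 in the lowest and -0.16 in the second class, 0.00 in the third, 0.11 in the fourth and 0.10 in the highest. In the lowest class 482 genes lay below 0 at an unadjusted p under 0.05 and 54 above, while in the highest class 16 lay below and 315 above. The pattern came with the wild type response, whose medians ran from 0.18 in the lowest class to -0.06 in the highest. The mosaic medians of the same level classes were 0.00 and 0.04, and the knockout medians 0.01 and 0.02. At day 4 the mosaic lay below wild type by a median of -0.13 in the lowest class and above it by 0.08 in the highest, against 0.04 and -0.02 at day 0. The spread of whole arrays moved with this: the interquartile range was 2.95 to 3.0 on the wild type arrays of day 4 and 3.02 to 3.12 on the mosaic arrays of day 4. Scanner files were not used here. After cyclic loess normalization of the deposited values the class medians shrank to between -0.03 and 0.04. Gene groups below are therefore set beside the median, and in most cases the share above 0, that genes of the same level classes had. Single members were less steady than group medians. Of the 164 genes among the 4 largest differences of a list, 86 moved by over 1.5 times and 8 reversed in at least 1 of the 12 fits that left out 1 array.

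**Figure D1:**
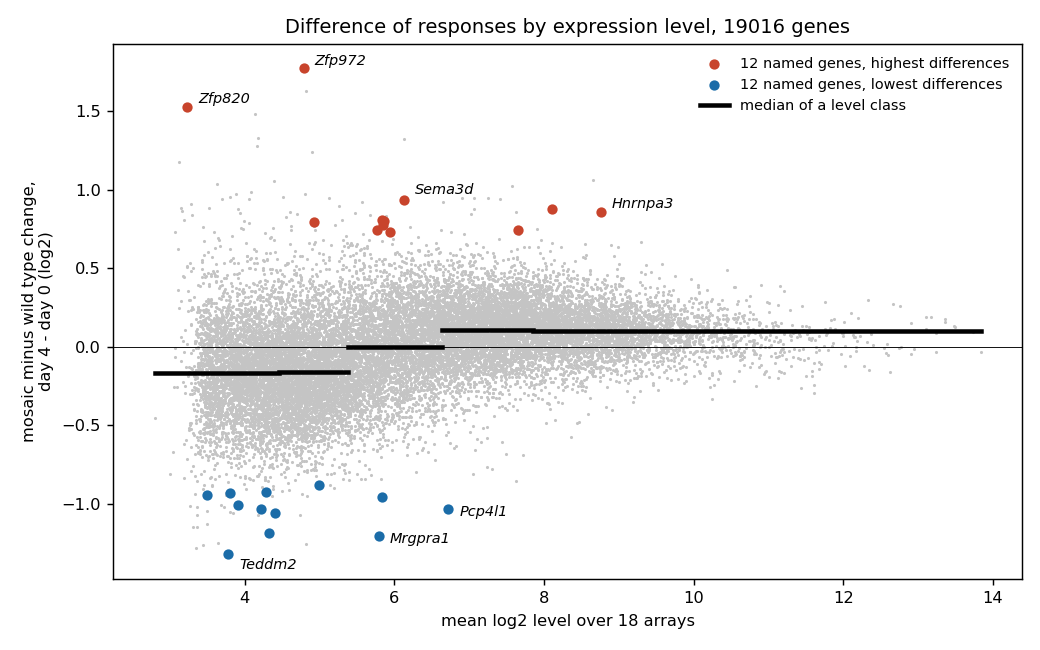
Difference of responses (mosaic change minus wild type change, log2) of each of 19016 genes against its mean log2 level over 18 arrays. Black bars give the median of each of 5 level classes, which goes from -0.16 in the lowest class to 0.10 in the highest; red and blue points are the 12 named genes with the highest and the 12 with the lowest differences.

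**Figure D2:**
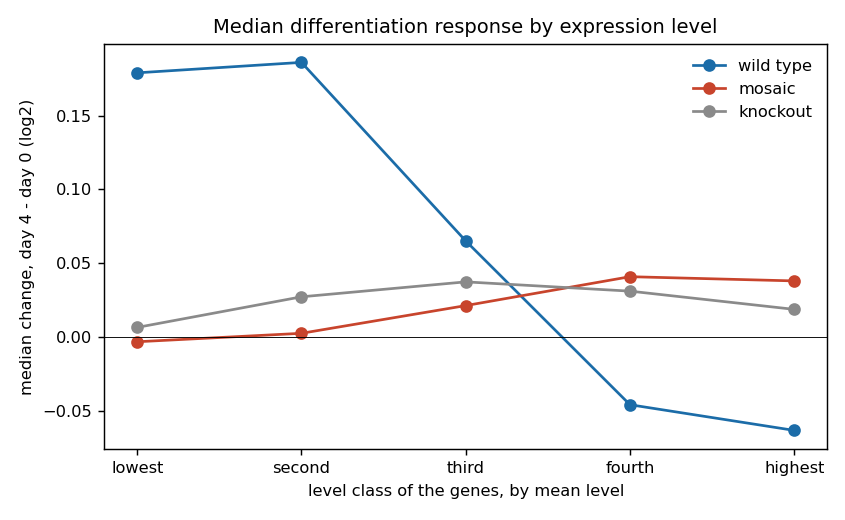
Median change between day 0 and day 4 (log2) in each of 5 classes of the genes by level, in wild type, mosaic and knockout cultures. The wild type line falls from 0.18 to -0.06, while the lines of the mosaic and the knockout stay between 0.00 and 0.04.

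The dimmest gene families showed the same sign as the level classes they belong to. Olfactory receptor genes, which act in the nose, had a median difference of -0.18 with 253 of 341 below 0 (74.2%, against 71.9% of genes at their level and 49.4% of all genes), keratins (epithelial filament proteins) -0.22 with 45 of 53 below (84.9%, level 71.1%), and beta defensins (antimicrobial peptides) -0.40 with 21 of 23 below (91.3%, level 70.3%). Genes of those level ranges had medians near -0.16, and in the mosaic responses alone these 3 families had medians of 0.00, -0.01 and -0.02. Brighter RNA-processing families lay above 0. Of 19 hnRNP genes, whose proteins package newly made RNA, 17 were above 0 with a median of 0.14, and of 10 SR splicing factor genes 9 were above 0 with a median of 0.19, both against 0.10 for their level, where 74.3% and 73.9% of genes lay above 0. The 73 small nucleolar RNA genes had a median of 0.26 with 58 above 0, against 0.10 for genes of their level. Genes named Zfp, which encode zinc finger proteins, had a median of 0.11 with 243 of 351 above 0, against 0.00 for their level. Of these, 34 lay above and 9 below 0 at an unadjusted p under 0.05 (5.41% and 6.97% of all genes). Members of such families share sequence, so signal from near-identical copies could not be told apart. Ribosomal protein genes had a median of 0.02 (80 genes), under the 0.10 of their level.

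Genes with an unadjusted p under 0.01 in limma made up 1.12% (higher in the mosaic) and 2.15% (lower) of all genes. Arrays were not paired, so changes were also taken between every day 4 and every day 0 array of a culture. Genes whose mosaic changes all lay above, or all below, every wild type change made up 2.99% and 2.61%. Of the genes that met both, the 12 highest and 12 lowest are named. They were picked for this contrast, so their values are a description. In the 12 with a higher mosaic response, 8 fell and 1 rose in wild type cultures, whereas 1 fell, 4 rose and 7 did not pass in mosaic cultures. All 12 lay above wild type in the mosaic mean at day 4, with separate arrays in 10 of them (9.62% of all genes were so separated), and all 12 lay below at day 0, with separate arrays in 5 (5.63% of all genes). The knockout response lay between the other 2 in 12 of 12, against 42% of all genes and 10 of the 12 lowest, but genes picked for a wide gap between mosaic and wild type leave more room for a value in between. Their adjusted p values were 0.195 to 0.281 in limma.

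Zfp972 (probe set 17395398), a zinc finger gene, had the largest difference of the named genes. Its level was 5.22, 4.84 and 5.23 in wild type at day 0 and 3.50, 3.73 and 4.27 at day 4. In the mosaic it was 4.30, 4.9 and 4.75 at day 0 and 5.03, 5.10 and 5.37 at day 4. All wild type arrays of day 4 thus lay below every other array of the 4 groups, with mosaic day 0 replicate 1 the nearest. It fell by 1.26 ± 0.20 in wild type, while the mosaic change was 0.51 ± 0.20 (adjusted p = 0.076) and the knockout change -0.36. The difference of responses was 1.77 ± 0.29 (adjusted p = 0.195 in limma). Without wild type day 4 replicate 3 it was 1.99 and passed (adjusted p = 0.0332). Zfp820 (probe set 17341365), of the same large family, showed 4.11, 3.94 and 4.18 in wild type at day 0 against 2.93, 2.56 and 2.30 at day 4, and 3.27, 3.17 and 2.96 in the mosaic at day 0 against 2.53, 3.63 and 3.40 at day 4. Its wild type arrays parted by day and its mosaic arrays overlapped between days, which gave a difference of 1.53 ± 0.34. The probe set was dim and cleared the 25th percentile on only 4 of the 12 arrays, with 0 of the 3 wild type arrays of day 4 among them, so the size of this difference is uncertain. Zfp943 had a difference of 0.73 (0.52 with the mean of its probe sets) and Zfand4, an AN1-type zinc finger gene, one of 0.74.

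Hnrnpa3 (probe set 17372140), an RNA-binding protein of the hnRNP family, read 9.44, 9.33 and 9.18 in wild type at day 0 and 7.74, 7.86 and 8.05 at day 4. Its mosaic levels were 9.25, 9.24 and 9.21, then 8.58, 8.65 and 8.74. The day 0 arrays overlapped between genotypes, and every mosaic array of day 4 was above every wild type one. It fell by 1.43 ± 0.13 in wild type and fell by 0.57 ± 0.13 in the mosaic, a difference of 0.86 ± 0.19. Akap17b (probe set 17540950), an anchoring protein for protein kinase A, fell by 1.02 ± 0.13 in wild type, while its mosaic change was -0.25 ± 0.13, a difference of 0.77 ± 0.18. Sat1, which acetylates the polyamines spermidine and spermine for breakdown, fell by 0.55 in wild type and had a mosaic change of 0.19.

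Sema3d (probe set 17434742), a secreted semaphorin that guides growing axons, rose in both cultures and more in the mosaic mean. It read 5.75, 5.6 and 5.58 in wild type at day 0 and 6.86, 6.23 and 6.39 at day 4, and in the mosaic 5.25, 5.64 and 5.50, then 7.02, 7.01 and 7.71. The day 0 arrays overlapped and the day 4 mosaic arrays lay above all wild type ones. It rose by 0.85 ± 0.18 and by 1.79 ± 0.18, a difference of 0.94 ± 0.26 (0.70 without mosaic day 4 replicate 3). Acer3, a ceramidase that splits a membrane lipid, fell by 0.79 in wild type and had a mosaic change of 0.02. Ippk, the kinase that makes inositol hexakisphosphate, rose in the mosaic by 0.95 with a wild type change of 0.14. Srp54c, of the signal recognition particle that directs proteins to the endoplasmic reticulum, rose in the mosaic by 1.05 against 0.18, and Ppp4r4, a regulatory subunit of protein phosphatase 4, rose in the mosaic by 0.46 against -0.33. The Srp54c difference of 0.88 became 0.60 without mosaic day 4 replicate 3. Srp54c has near-identical copies in the mouse genome, so its value is uncertain.

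The 12 genes with the lowest mosaic response were mostly dim. Of them 9 lay in the lowest 2 level classes by level, where the all-gene median was itself -0.16. In wild type 8 rose, 0 fell and 4 did not pass, and in the mosaic 0 rose, 4 fell and 8 did not pass. Their adjusted p values were 0.195 to 0.282. At day 4 the mosaic mean was below wild type in 12 of 12, with separate arrays in 9 (8.55% of all genes), and at day 0 above it in 12 of 12, with separate arrays in 9 (5.66% of all genes).

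Pcp4l1 (probe set 17229639), a small protein related to the calmodulin regulator Pcp4, was the brightest of them. It read 6.83, 6.78 and 6.92 in wild type at day 0 and 6.58, 6.91 and 6.75 at day 4, and in the mosaic 7.20, 7.31 and 7.09, then 6.32, 5.67 and 6.22. The mosaic arrays lay above all wild type arrays at day 0 and below all of them at day 4. It fell by 1.13 ± 0.15 in the mosaic, with a wild type change of -0.10 ± 0.15 and a knockout change of -0.78, and the difference was -1.03 ± 0.21 (adjusted p = 0.222 in limma). Gata4 (probe set 17307609), a transcription factor of heart and endoderm, read 5.55, 5.50 and 5.50, then 6.65, 5.85 and 6.11 in wild type, and 6.0, 5.99 and 5.96, then 6.11, 5.46 and 5.59 in the mosaic. Its arrays were separate at day 0 and overlapped at day 4. It rose by 0.69 ± 0.17 in wild type, while the mosaic change was -0.26 ± 0.17, a difference of -0.96 ± 0.24.

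Teddm2 (probe set 17228276) had the lowest difference, -1.32 ± 0.25. It read 2.98, 3.21 and 3.51, then 4.50, 3.80 and 4.28 in wild type, and 3.85, 4.03 and 3.89, then 3.55, 3.41 and 3.72 in the mosaic. Its arrays did not overlap between the genotypes on either day, in opposite order, but the gene sat in the dimmest level class and above the 25th percentile on 7 of 12 arrays. Lrrc25 (probe set 17501989), a leucine-rich repeat protein of myeloid cells, read 4.53, 4.67 and 4.65, then 5.46, 5.46 and 5.08 in wild type, and 5.11, 5.21 and 4.87, then 5.09, 4.88 and 4.72 in the mosaic. Its day 0 arrays were separate and those of day 4 overlapped by 1 array, and the difference was -0.88 ± 0.18. The others were Mrgpra1 (a receptor of sensory neurons, -1.20), Prnd (a relative of the prion protein, -1.18), Tgm7 (a transglutaminase, -1.06), Magix (a PDZ domain protein, -1.03), Klk1b21 (a kallikrein protease, -1.01), Prl2a1 (a prolactin relative of the placenta, -0.94), Tas2r138 (a bitter taste receptor, -0.93) and Krt17 (a keratin, -0.92). Several of these are known from tissues other than brain, and several have close copies in the genome, so their dim signals are uncertain. Prl2a1 lay above the 25th percentile on only 3 of 12 arrays, 2 of them wild type arrays of day 4. With the mean of its probe sets Prnd differed by -0.80. Ttr and Lrg1, chosen after their values were seen since they shared the lowest adjusted p of 0.195, had differences of -0.79 ± 0.15 and -0.78 ± 0.15. Ttr carries thyroid hormone and is made by the choroid plexus, and it rose by 0.48 in wild type and fell by 0.31 in the mosaic, with a mean level of 4.77.

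**Figure D3:**
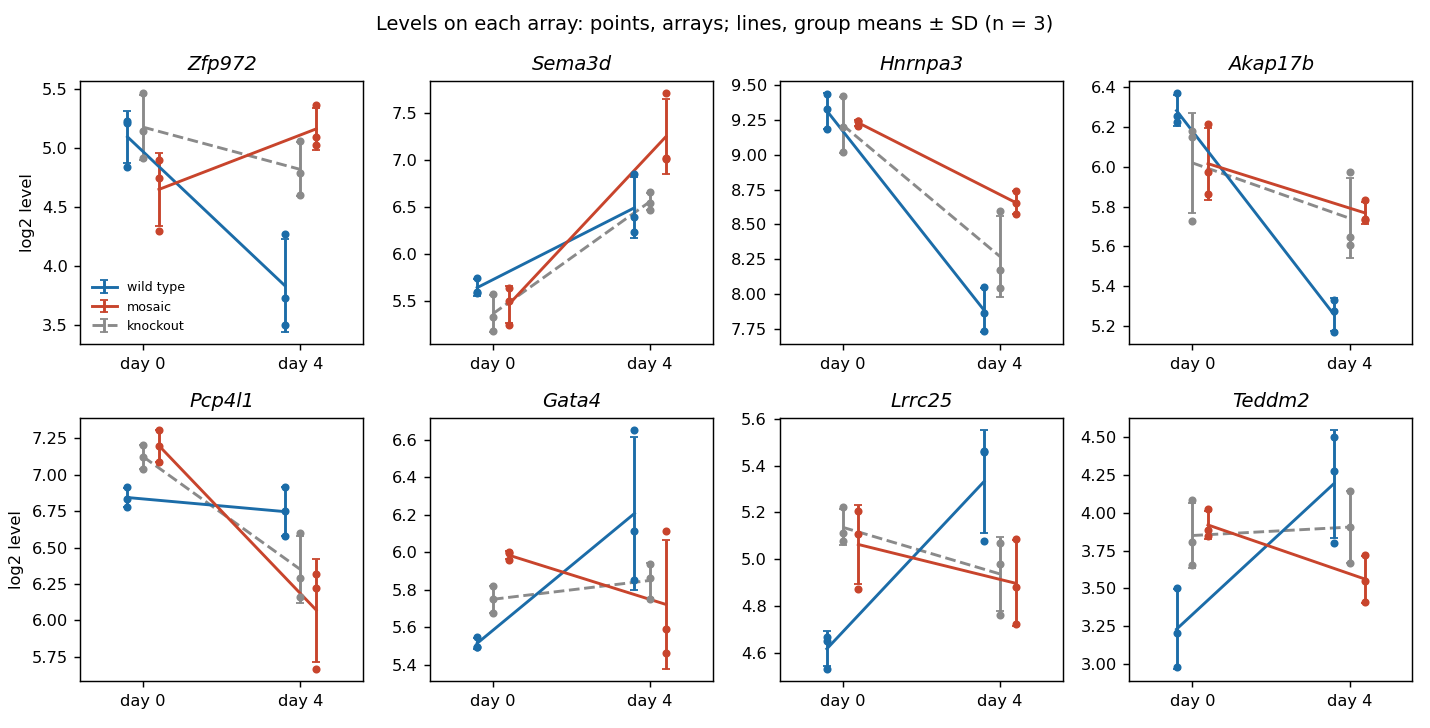
Log2 level on each array (points) with group means ± SD (n = 3), at day 0 and day 4, for 4 genes with higher and 4 with lower mosaic response. Wild type is blue, mosaic red and knockout grey; in Hnrnpa3 the day 4 mosaic arrays lie above the wild type ones, and in Pcp4l1 they lie below.

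Myelin genes rose strongly in both cultures, and most of them had a somewhat larger change in the mosaic mean, with no member passing. Of 15 myelin structure genes tested, 12 rose and 1 fell in wild type (17.2% and 16.3% of all genes), and 13 rose and 0 fell in the mosaic (14.4% and 11.9% of all genes). The median changes were 2.07 in wild type, 2.29 in the mosaic and 1.93 in the knockout. The difference of responses was above 0 in 11 and below in 4 (73.3%), against 64.5% of genes at the same level and 50.6% of all genes, with a median of 0.24 against 0.10 for genes of the same level. The median was 0.12 without wild type day 4 replicate 3 and 0.16 after cyclic loess normalization. By member, 1 of 15 reached an unadjusted p under 0.05 (12.4% of all genes). In bulk samples more cells of a type and more RNA per cell cannot be told apart.

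That member was Gjc3, a gap junction protein of oligodendrocytes. It read 8.84, 8.48 and 8.61, then 9.29, 9.33 and 9.21 in wild type, and 8.70, 8.52 and 8.20, then 9.36, 9.68 and 10.01 in the mosaic. Day 0 overlapped and all mosaic arrays of day 4 lay above the wild type ones. It rose by 0.63 ± 0.15 and 1.21 ± 0.15, a difference of 0.58 ± 0.21 (adjusted p = 0.315 in limma). Opalin, a membrane protein of mature oligodendrocytes, read 4.72, 4.71 and 4.78, then 5.85, 5.76 and 5.54 in wild type, and 5.16, 4.49 and 4.39, then 6.12, 5.82 and 6.98 in the mosaic. Its highest value was mosaic day 4 replicate 3, the day 4 arrays overlapped, and the difference of 0.64 ± 0.34 became 0.31 without that replicate. Mag, an adhesion protein of the innermost myelin layer, rose by 4.88 and 5.50, a difference of 0.62 ± 0.49 with a 95% confidence interval of -0.41 to 1.66, and mosaic day 0 replicate 1 lay far below the rest at 3.95. Without that array the Mag difference was 0.14. Mbp, the main protein that compacts the membrane, differed by 0.47 ± 0.25, and Cldn11, the tight junction protein of myelin, by 0.48 (0.31 without the same array). Mog and Ermn, proteins of the outer myelin layers and late maturation, had differences of -0.31 and -0.41. The myelin genes therefore did not all lean one way.

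Genes listed for myelin lipids, mainly enzymes and transporters, had a median difference of 0.31, with 11 of 13 above 0 (84.6%), against 0.11 and 68.5% for genes of the same level. The list is wider than lipid synthesis, so its median is not that of lipid-making enzymes alone. Of the 13, 10 rose in wild type (17.2% of all genes) and 11 in the mosaic (14.4% of all genes). Without mosaic day 4 replicate 3 the median was 0.15. Enpp6, a choline-releasing phosphodiesterase of newly formed oligodendrocytes, differed by 0.65, Pllp (plasmolipin) by 0.49, Elovl7 (a fatty acid elongase) by 0.47 and Ugt8a (which makes galactosylceramide) by 0.45. Each of these moved when 1 array was left out. Without mosaic day 4 replicate 3 the difference was 0.12 for Pllp and 0.23 for Elovl7, and without mosaic day 0 replicate 1 it was 0.32 for Enpp6 and 0.26 for Ugt8a. Gamt, which makes creatine and not a lipid, was the 1 member with an unadjusted p under 0.05 in limma and differed by 0.44, with a fall of 0.78 in wild type. Ndrg1 had the lowest difference of the list, -0.41.

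Transcription factors of the oligodendrocyte lineage and genes of its progenitors lay closer to the level of other genes. The 12 factors had a median difference of 0.11 (0.10 for their level) with 8 above 0, and the 18 progenitor genes 0.15 (0.10 for their level) with 14 above 0. With single arrays left out these medians ran from 0.01 to 0.22 and from 0.09 to 0.24. Zfp536, a zinc finger repressor listed among the factors, read 5.22, 5.45 and 5.48, then 5.69, 5.81 and 5.63 in wild type, and 5.14, 5.01 and 5.03, then 5.91, 6.07 and 5.97 in the mosaic. The mosaic arrays were below all wild type arrays at day 0 and above all of them at day 4. The difference was 0.60 ± 0.17 (adjusted p = 0.278 in limma). Sox17, which is also known from endothelium and endoderm, differed by -0.40, Myrf (the factor that drives myelin genes) by 0.37 and Tcf7l2 (a Wnt effector of maturing oligodendrocytes) by 0.35. Bcas1, which marks oligodendrocytes that are starting to myelinate, rose by 1.11 in wild type and 1.75 in the mosaic, a difference of 0.64 ± 0.29 (adjusted p = 0.387). Tnr, a matrix protein, differed by 0.49, Gpr17, a receptor of the premyelinating stage, by 0.36, and Sox6, which holds progenitors immature, by 0.27. Without mosaic day 0 replicate 1 the difference was 0.18 for Myrf, 0.28 for Tnr and 0.19 for Gpr17.

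Cholesterol synthesis genes, which encode the chain of enzymes that builds the sterol on which myelin membrane depends, had a larger change in the mosaic mean that rested on 1 array. Of 16 tested, 11 rose in wild type (17.2% of all genes) and 15 in the mosaic (14.4% of all genes), and 0 fell in either. The mosaic mean was above wild type in 14 of 16 at day 0 and in 16 of 16 at day 4. Over all 19016 genes it was above in 9748 at day 0 and in 9771 at day 4. At day 4, 8 of the 16 had separate arrays (9.62% of all genes). The difference of responses was above 0 in 15 of 16 (93.8%, against 76.4% at their level), with a median of 0.23 against 0.10. The mean over the 16 genes was 8.38, 8.59 and 8.37 in wild type at day 0 and 9.01, 8.96 and 8.87 at day 4. In the mosaic it was 8.55, 8.63 and 8.54 at day 0 and 9.05, 9.08 and 9.89 at day 4. Mosaic day 4 replicate 3 stood above all other arrays, whereas replicates 1 and 2 lay near the wild type range, and without replicate 3 the median difference was -0.038. Genes of sterol sensing and uptake had a median of -0.04 (13 genes) and those of fatty acid synthesis 0.02 (12 genes), below the 0.10 of their level.

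Ebp, the isomerase of a late step, read 7.71, 7.67 and 7.72, then 8.35, 8.11 and 7.70 in wild type, and 7.61, 7.63 and 7.74, then 8.46, 8.41 and 8.97 in the mosaic. All mosaic arrays of day 4 were above all wild type ones, and the difference was 0.60 ± 0.22 (adjusted p = 0.32 in limma) or 0.42 without replicate 3. Cyp51, a demethylase of lanosterol, read 9.29, 9.17 and 9.22 in wild type and 9.35, 9.5 and 10.45 in the mosaic at day 4, with a difference of 0.44 ± 0.29 that became 0.10. Lss, which closes squalene epoxide into lanosterol, read 8.66, 8.61 and 8.64 against 8.91, 8.79 and 10.29, with a difference of 0.44 ± 0.38 that became -0.045. Hsd17b7, a ketone reductase of the same path, differed by 0.56 ± 0.35 (0.19 without the replicate). Sqle, which makes squalene epoxide, differed by 0.39 ± 0.18 (adjusted p = 0.4).

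The start regions of the cholesterol synthesis genes were read for short sequence boxes. Whether such boxes have a part in the joint movement on 1 array was not tested. RefSeq promoter sequences (GRCm38.p6, 300 bases around each gene's start) were found for 13 of the 16. The letters CCAATC, the box bound by factor NF-Y, were looked for on both strands, so that GATTGG counts too. They occurred in 12 of 13 cholesterol genes (92.3%), in 5292 of 32851 promoters (16.1%) and in 3109 of 14663 tested genes with a promoter (21.2%). Among myelin structure genes they occurred in 3 of 14 (21.4%), and among myelin lipid genes in 2 of 11 (18.2%). The letters GGGCGG, the GC box bound by Sp1, occurred in 12 of 13 cholesterol genes (92.3%). They occurred in 35.7% of all promoters and in 56.3% of tested genes. Among myelin structure genes the GC box was found in 6 of 14 (42.9%), and among myelin lipid genes in 8 of 11 (72.7%). In the printed regions no GC box overlapped an NF-Y box. The regions of Ebp, Cyp51 and Lss are shown 5′ to 3′ on the strand of the gene, with the NF-Y box in capitals. Ebp lies at chrX:8193463-8193762 on the minus strand, Cyp51 at chr5:4104648-4104947 on the minus strand and Lss at chr10:76531355-76531654 on the plus strand. A match is a description of the letters, not of binding.
Ebp: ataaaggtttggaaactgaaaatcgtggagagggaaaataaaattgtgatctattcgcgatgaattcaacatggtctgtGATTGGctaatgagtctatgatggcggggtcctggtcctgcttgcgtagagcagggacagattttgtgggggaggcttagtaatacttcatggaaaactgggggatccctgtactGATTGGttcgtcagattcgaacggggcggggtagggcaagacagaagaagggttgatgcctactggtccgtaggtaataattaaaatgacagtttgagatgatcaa
Cyp51: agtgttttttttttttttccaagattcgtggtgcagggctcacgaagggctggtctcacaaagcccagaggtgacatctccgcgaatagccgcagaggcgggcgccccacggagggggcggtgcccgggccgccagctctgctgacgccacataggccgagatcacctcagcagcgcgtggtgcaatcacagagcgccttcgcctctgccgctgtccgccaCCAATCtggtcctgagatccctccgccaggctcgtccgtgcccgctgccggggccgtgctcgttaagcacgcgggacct
Lss: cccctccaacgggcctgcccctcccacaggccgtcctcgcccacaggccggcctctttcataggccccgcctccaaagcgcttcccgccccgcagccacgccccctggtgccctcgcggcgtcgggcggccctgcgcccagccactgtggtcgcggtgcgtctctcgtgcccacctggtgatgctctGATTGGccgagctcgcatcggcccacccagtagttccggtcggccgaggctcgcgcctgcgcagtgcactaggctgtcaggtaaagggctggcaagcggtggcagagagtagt

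**Figure D4:**
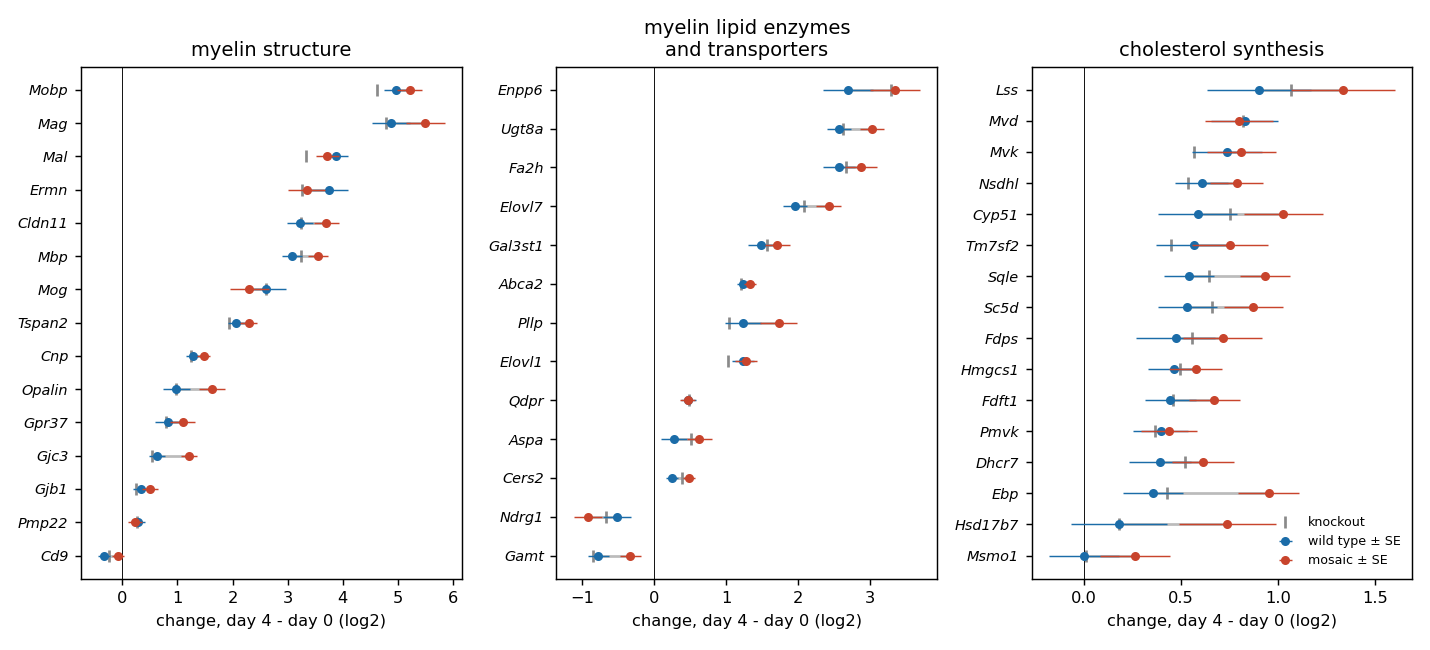
Change between day 0 and day 4 (log2) of each gene of 3 groups, in wild type (blue) and mosaic (red) cultures ± SE and in knockout cultures (grey tick). In cholesterol synthesis 15 of 16 mosaic points lie to the right of wild type, while among myelin structure genes 4 of 15, such as Mog and Ermn, lie to the left.

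Neuronal genes are described by kind. General neuron genes had a median difference of 0.14 against 0.05 for their level, with 20 of 26 above 0 (76.9%, level 58.8%). That median was 0.021 without mosaic day 4 replicate 1, 0.089 without mosaic day 0 replicate 3 and 0.075 after cyclic loess normalization. The light neurofilament gene Nefl rose by 0.77 in wild type and 1.43 in the mosaic (difference 0.65 ± 0.30, adjusted p = 0.392), whereas the heavy neurofilament gene Nefh rose by 0.38 in wild type with a mosaic change of -0.14 (difference -0.52 ± 0.19, adjusted p = 0.315). Genes of GABAergic interneurons, the inhibitory neurons, lay below 0 for the most part. Of 20 tested 16 were below 0 (80%, against 56.6% at their level), with a median of -0.22 against -0.08 for their level. In wild type 11 rose and 2 fell (17.2% and 16.3% of all genes). In the mosaic 3 rose and 1 fell (14.4% and 11.9% of all genes). The median changes were 0.36, 0.16 and 0.26 in wild type, mosaic and knockout. No member passed in the difference of responses. The median was -0.11 without mosaic day 4 replicate 3 and -0.13 after cyclic loess normalization.

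Dlx6, a homeobox factor that sets interneuron identity, read 4.16, 4.59 and 4.53, then 5.07, 5.14 and 5.04 in wild type, and 4.40, 4.49 and 4.51, then 4.82, 4.55 and 4.73 in the mosaic. Day 0 overlapped, and all mosaic arrays of day 4 were below the wild type ones. It rose by 0.66 ± 0.10 in wild type, its mosaic change was 0.23 ± 0.10 (adjusted p = 0.12), its knockout change was -0.18, and the difference was -0.42 ± 0.15 (adjusted p = 0.307 in limma). Gad1, the enzyme that makes GABA, read 5.09, 5.04 and 5.27, then 5.89, 5.89 and 5.83 in wild type, and 5.53, 5.02 and 5.25, then 5.72, 5.35 and 5.55 in the mosaic. Its day 4 arrays were also separate, and the difference was -0.46 ± 0.20 (adjusted p = 0.38). Sst, the interneuron peptide somatostatin, differed by -0.42 ± 0.17, and Dlx6os1, a noncoding RNA that overlaps the Dlx6 locus on the other strand, by -0.52 ± 0.25. Whether the probe sets of Dlx6 and Dlx6os1 read the strands apart is not given. Prox1, chosen after its values were seen, was an exception with 0.36 ± 0.16.

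Genes of excitatory neurons were dim, with a median level of 4.41, and their median difference of -0.29 stood against -0.16 for their level. Of 11 tested, 5 lay above 0 (45.5%, against 33.4% at their level) and 6 below. Slc17a7, a vesicular glutamate transporter, differed by -0.58 and Emx1, a cortical homeobox factor, by -0.52. The median ran from -0.34 to 0.04 when single arrays were left out and was 0.15 at the 50th percentile filter, so it gives no direction. Among synapse genes 17 of 25 lay above 0 (median 0.07, level 0.10). Lrrtm2, an adhesion protein of excitatory synapses, fell by 1.31 in wild type and fell by 0.64 in the mosaic, a difference of 0.67 ± 0.20 (adjusted p = 0.281).

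Guidance and adhesion genes included members of the family of Pcdh19. Of 30 axon guidance genes 24 were above 0 (80%, level 62.1%). Their median was 0.13 against 0.10 for their level (0.061 without mosaic day 4 replicate 1). At an unadjusted p under 0.05 in limma, 5 lay above and 0 below (5.41% and 6.97% of all genes). In the fourth and the highest level class, which held 18 of the 30, 396 and 315 of 3803 genes each lay above. Nrp2, a semaphorin receptor, read 7.17, 7.17 and 7.14, then 6.11, 6.01 and 5.90 in wild type, and 6.89, 6.71 and 6.68, then 6.30, 6.06 and 6.05 in the mosaic. The mosaic lay below wild type at day 0 with no overlap, and the arrays overlapped at day 4. It fell by 1.15 ± 0.13 and fell by 0.63 ± 0.13, a difference of 0.53 ± 0.18 (adjusted p = 0.305). Dcc, a netrin receptor, rose by 0.57 in the mosaic with a wild type change of 0.10. Sema3e and Sema4d, both semaphorins, had differences of 0.65 and 0.48, which became 0.44 and 0.28 without mosaic day 4 replicate 3. Without mosaic day 0 replicate 3 the Sema3e difference was 1.06. In the delta protocadherins, of which Pcdh19 is one, 9 of 12 were above 0 with a median of 0.09 against 0.05 (0.03 to 0.20 with single arrays left out). Pcdh7 (0.34) and Pcdh9 (0.28) lay above and Pcdh20 (-0.33) below at an unadjusted p under 0.05 (5.41% and 6.97% of all genes). The mosaic mean was under wild type at day 0 in 11 of 12, against 9268 of all 19016 genes. For Pcdh19 itself the mosaic minus wild type difference at day 0 was -0.78. In the classical cadherins 9 of 16 lay above 0 (median 0.05, level 0.05), and Cdh18 differed by -0.68 ± 0.19 (adjusted p = 0.275). Of the WAVE complex, which drives actin branching and is bound by several protocadherins, 8 of 11 lay above 0 with a median of 0.10, the level of other genes. Its subunit gene Wasf3 differed by 0.35 and Nckap1l, a subunit of blood cells, by -0.58.

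Mitosis genes fell in both cultures. All 23 mitosis genes fell in wild type and in the mosaic (16.3% and 11.9% of all genes). Their median changes were -2.36 and -2.14, and the median difference was 0.10 against 0.11 for their level. The mean over the 23 genes at day 4 was 6.02, 6.26 and 6.36 in wild type and 5.90, 6.55 and 7.0 in the mosaic. The mosaic arrays thus spanned the wild type range on both sides, and the median difference was 0.41 without mosaic day 4 replicate 1 and -0.17 without replicate 3. Aspm, a spindle pole protein, was the 1 member at an unadjusted p under 0.05 (0.43 ± 0.18). Astrocyte genes had a median of -0.02 with 12 of 27 above 0, and neural stem cell genes -0.01 with 10 of 21 above 0, both below the 0.10 of their level. Of the 27 astrocyte genes 16 rose and 6 fell in wild type (17.2% and 16.3% of all genes). In the mosaic 16 rose and 6 fell (14.4% and 11.9% of all genes). The median changes of astrocyte genes were 0.50 and 0.37. Gfap, the filament protein of astrocytes, was among those that fell. It fell by 1.68 in wild type and by 1.11 in the mosaic, a difference of 0.57 ± 0.38. Mosaic day 0 replicate 1 lay at 7.68 against 8.41 and 8.56 in the other replicates. Without that array the Gfap difference was 0.30. Of 26 immediate early genes, 21 fell in wild type (16.3% of all genes) and 23 in the mosaic (11.9% of all genes). Their median difference was 0.05 against 0.11. Egr1, a factor induced by growth signals, fell by 4.65 in wild type and fell by 4.13 in the mosaic, a difference of 0.52 ± 0.20 (adjusted p = 0.343).

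Matrix, stress and signalling groups gave small medians. Hypoxia and glycolysis genes had a median difference of -0.14 against 0.10 for their level, with 15 of 21 below 0. In this group the mosaic mean was above wild type at day 0 in 18 of 21, against 9748 of all 19016 genes. Adm, the vessel-dilating peptide adrenomedullin, fell by 2.08 in wild type and fell by 2.65 in the mosaic. The median difference of the group ran from -0.24 to 0.01 when single arrays were left out. Extracellular matrix genes had a median of -0.16 against 0.00, with 19 of 27 below 0. Col1a2, a collagen chain, read 4.92, 4.66 and 4.87, then 5.44, 5.41 and 5.22 in wild type, and 4.76, 4.95 and 5.06, then 5.04, 4.89 and 4.86 in the mosaic. Day 0 overlapped, and the mosaic was below every wild type array at day 4, with a difference of -0.54 ± 0.14 (adjusted p = 0.275 in limma). Nid1 and Thbs1, also matrix proteins, differed by 0.58 (0.18 without mosaic day 0 replicate 1) and 0.55, so the group did not lean one way throughout.

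Interferon response genes had a median of -0.10 against -0.16 for their level. At an unadjusted p under 0.05 in limma, 4 lay below and 0 above (6.97% and 5.41% of all genes). In the lowest and the second level class, which held 11 of the 21, 482 of 3804 and 525 of 3803 genes lay below. Ddx58, a sensor of viral RNA, fell by 0.56 in wild type and fell by 1.09 in the mosaic, a difference of -0.52 ± 0.18, and Gbp3, a guanylate-binding protein, differed by -0.63. Among p53 targets (18 genes, median -0.02, level 0.10) Bbc3, a promoter of cell death, differed by -0.64 ± 0.18 (adjusted p = 0.275). In the Notch group (24 genes, median 0.05, level 0.10) the ligand genes Jag1 and Jag2 differed by 0.59 and -0.51. In the BMP group (18 genes, median 0.09, level 0.00) the ligand gene Bmp4 differed by 0.85 (0.51 without mosaic day 0 replicate 1), and in the Sonic hedgehog group (11 genes, median 0.00, level 0.11) Hhip, which binds and restrains the ligand, differed by 0.61 ± 0.18 (adjusted p = 0.281). None of these passed after adjustment.

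Markers of cells that a neurosphere culture could hold besides neural ones were dim. The median differences were -0.17 for microglia (9 of 12 below 0), -0.26 for endothelium (9 of 10), -0.30 for mural cells and fibroblasts (10 of 12) and -0.17 for ependymal cells (9 of 11), against -0.16 for genes as dim. Microglia and ependymal genes thus lay near their level, and endothelial and mural genes below it. After cyclic loess normalization the latter were still at -0.13 and -0.17, against -0.02 and -0.03 in the dimmest 2 level classes, and with single arrays left out they ran from -0.28 to -0.18 and from -0.46 to -0.25. At day 4 the mean over the microglia genes was 4.79 to 4.91 on wild type and 4.67 to 4.83 on mosaic arrays, and that over the ependymal genes 4.77 to 4.94 and 4.68 to 4.78. The mean over the endothelial genes was 4.85 to 4.94 on wild type and 4.60 to 4.74 on mosaic arrays, and that over the mural genes 5.33 to 5.47 and 5.11 to 5.28. The arrays overlapped for microglia and ependymal cells and were separate for the other 2 groups, all of them near the medians of whole arrays. The part of such cells in the results above was not tested.

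**Figure D5:**
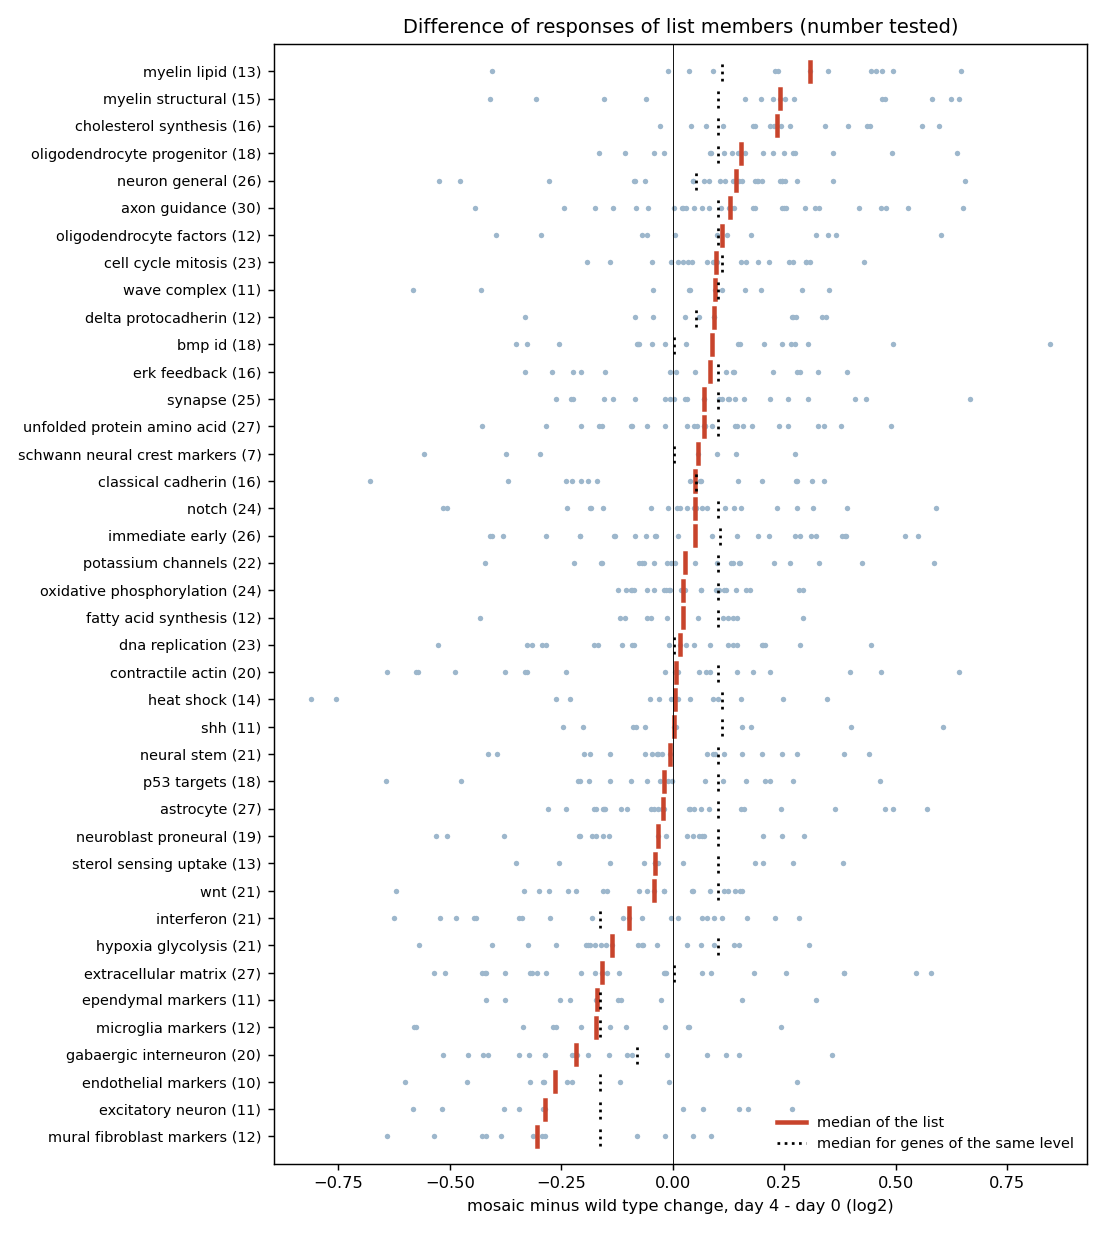
Difference of responses (mosaic change minus wild type change, log2) of each tested member (points) of each gene group, with the number tested in brackets. Red bars are group medians and dotted bars the median that genes of the same level had; myelin lipid genes (0.31 against 0.11) and GABAergic interneuron genes (-0.22 against -0.08) lie on opposite sides.

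Genes that changed at least 2-fold were also chosen in the knockout arrays, whose levels do not enter the difference of mosaic and wild type. Mosaic cultures hold knockout cells, so this choice is not neutral between mosaic and wild type. In the knockout 15% of all genes rose and 12.4% fell. For 322 genes that rose at least 2-fold there, the median change was 1.19 in wild type, 1.37 in the mosaic and 1.33 in the knockout. The difference of responses was above 0 in 253 of them (78.6%, against 63.6% at their level), with a median of 0.20 against 0.10 for genes of their level. For 469 genes that fell at least 2-fold in the knockout, the medians were -1.54, -1.41 and -1.50, and the difference was above 0 in 311 (66.3%, level 62.2%) with a median of 0.11, the value of their level. The genes that rose in the knockout thus had a higher median rise in the mosaic than in wild type, with a median difference above that of their level. How far the choice on the knockout shaped that was not tested. The genes that fell in the knockout had a somewhat smaller median fall in the mosaic, with a median difference no larger than that of their level. In the difference of responses 0 of either passed. Both sets were not recomputed with other normalizations or with single arrays left out.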

How the data were processed

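RNA of 18 neurosphere samples was hybridised to Affymetrix mouse arrays, with 1 sample on each. The values used are those the authors deposited in the series' value table, and their range is that of log2 levels. How the authors corrected background and normalized, and the log base, is not given in the sources used here. Of 41345 probe sets, the 23521 with 1 symbol in the platform annotation were used (1814 had several symbols and 16010 none listed), and a gene with several was read from the one whose mean over the 18 arrays was highest. Genes above the 25th percentile of an array on at least 3 arrays were kept (19016 of 22180). A linear model with 6 group means was fitted to all 18 arrays in R 4.3.3 with limma 3.58.1 (lmFit, eBayes, 12 residual and 4.36 prior degrees of freedom). Tests were two-sided, the Benjamini-Hochberg adjustment ran over the genes tested, and calls were made at an adjusted p under 0.05. Groups came from the sample titles. Errors are standard errors from the fit unless named SD. The fit was first tested on simulated data.

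Replicate numbers were not used as a block in the fit reported. The text names Pcdh19, the 12 highest and 12 lowest differences with an unadjusted p under 0.01 and no overlap of changes (predicted, clone, olfactory, vomeronasal, small RNA, histone and receptor segment genes left out), and up to 4 members of each described list by size, with further members for context. The comparison, the gene lists and the naming rule were chosen with earlier results of these data known. List medians are set beside the median of the all-gene medians of their members' level classes. Alternatives were other normalizations and filters, the mean of probe sets, replicate blocks, a variance trend, array weights, a fit on 12 arrays alone, other thresholds and leaving out each array. Cyclic loess normalization, the blocks for each culture's own change and the array-by-array leave-outs of list members were added after seeing the data. Shares above 0 at a level are means over the members' level classes.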

Additional observations from a re-analysis of the deposited data

How the results depend on the processing

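The count of 0 genes passing in the difference of responses held under most alternatives run. It became 1 with a robust variance trend (Zfp972, adjusted p = 0.0479), 1 in the fit on 12 arrays alone (H2al3, adjusted p = 0.0429) and 10 at an adjusted p under 0.2, and it ran from 0 to 1 when single arrays were left out (1 without wild type day 4 replicate 3, Zfp972). The count at an unadjusted p under 0.05 was 2354 with 43.7% higher, 1721 with 554 higher after quantile normalization, 2708 with 1952 higher at a common array median, 1606 with 830 higher after cyclic loess, and 1815 with 1072 higher at the 50th percentile filter, so the share of higher genes depends on scaling and filter. It was 1749 to 3197 when single arrays were left out. With the replicate block 0 genes passed and 2365 had an unadjusted p under 0.05, and with arrays of 1 genotype and replicate number as a random block 0 and 2641. Deviations of same-numbered arrays correlated weakly (-0.01 to 0.17 in 18 pairs, 17 above 0 and 1 over 0.1), those of other pairs from -0.11 to 0.06 (7 of 36 above 0), and 11 of 12 arrays were closest on average to their own number, a hint from the data and not from the design. Of the calls in each culture's own change the replicate block kept 6112 of 6386 in wild type (6328 in all) and 4801 of 4989 in the mosaic (4984 in all), and the random block kept all of them (6793 and 5288 in all). Of 197 genes checked (the named genes, the largest list members and 8 others in the text), the replicate block lost 5 calls in wild type and 3 in the mosaic, among them Slc17a7, Emx1 and Hsd17b7. The difference reversed for Pcdh19 (-0.084 without mosaic day 4 replicate 2, range -0.084 to 0.70 over single arrays left out) and Lss (-0.045 without mosaic day 4 replicate 3, range -0.045 to 0.71). The myelin lipid median ran from 0.15 to 0.40 when single arrays were left out. Of 933 recomputed gene values 929 kept their direction and side of the threshold, and the causes of the changes were not tested. Several alternatives, such as the replicate blocks and the variance trend, left the differences themselves unaltered, and 0 genes had passed in the main fit. The count of values kept therefore says little about how steady the differences are. A common median moved the median of all genes from 0.00 to 0.08. Of 966 recomputed list medians 24 moved by more than the spread. Precision is limited by 3 arrays per group, and no signal over background was at hand.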
